A study of Mus musculus with 15 samples.

Results

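The difference between conventionally raised (ConvR) and germ-free (GF) mouse livers was measured as an average over both diets of the study. The groups were read from the sample titles. Liver RNA of 6 ConvR mice, 3 on a high-fat high-sucrose diet (HF/HS) and 3 on chow, was set against that of 6 GF mice, again 3 on each diet, so that 12 of the 15 libraries of the series were compared. The 3 other libraries came from conventionalized (ConvD) mice on chow, which were once GF, and entered the filter on low counts, the scaling and the estimate of spread, but not the difference. Every mouse was a male C57BL/6J, a widely used inbred strain without an engineered allele, and was dissected at 19 weeks of age. ConvR mice had acquired their microbes from birth onward, whereas GF mice had none, with sterility checked by culture of faeces. The diets began after 3 weeks of age and were irradiated and autoclaved. Fat supplied 44.6% of the energy of HF/HS and 23.7% of that of chow, carbohydrate 40.6% and 53.2%, and protein 14.8% and 23.1%. ConvR and GF mice lived in separate isolators and were caged by status and diet, so that status, isolator and cage cannot be told apart.

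The liver is the first organ to receive blood from the intestine through the portal vein, and with it bacterial products and metabolites. Gut bacteria remove taurine and glycine from bile acids and convert primary into secondary bile acids, and the pool they leave acts on the nuclear receptor FXR in ileum and liver. GF mice are known for a large pool of taurine-conjugated bile acids, altered sterol and lipid handling, and little exposure of liver macrophages to bacterial ligands.

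Expected counts, the reads that RSEM assigned to each gene, totalled 14737578 to 21331381 in the 12 libraries. Of 20325 listed genes, 12377 passed the filter on low counts and were tested. Levels are given as CPM, counts relative to library totals that were scaled by TMM, on the usual CPM scale. Pearson's r of log2 CPM over the tested genes, which do not count as replicates, was 0.968 to 0.992 for 2 mice of the same group and 0.948 to 0.985 for 2 mice of different groups. Alb, the serum albumin gene of hepatocytes, held 2.86% to 9.50% of each library, and 25 markers of hepatocyte identity summed to 90080 to 164200 CPM. Some libraries stood apart from the others. The mean log2 CPM of 32 acute phase genes was 10.14 in ConvR chow mouse 1 and 10.49 in ConvR chow mouse 2, against 8.156 in ConvR chow mouse 3 and 7.08 to 7.65 in the other 9. For immediate early genes the mean was 5.329 in GF chow mouse 1, 3.687 in mouse 2 and 2.623 in mouse 3, against 1.51 to 2.56 in the other 9. Libraries also differed by gene length. The rank correlation of relative expression with length ran from 0.0891 to 0.277 in the HF/HS libraries and from -0.341 to 0.0178 in the ConvR and GF chow libraries, and was 0.0779 to 0.196 in the ConvD chow libraries.

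Averaged over the diets, and with 1 sign on both, transcripts of the taurine enzyme Csad, the lipid droplet protein Plin4, the iron hormone gene Hamp and the bile acid enzyme Cyp39a1 were higher in ConvR than in GF livers. Those of the peroxidase Gpx6, the insulin receptor substrate Irs2, the IGF-binding protein Igfbp2 and the phosphodiesterase Pde4b were lower. Calls were made for 8.39% of all genes tested. All called members of the lists of amino acid breakdown (12 of 48 tested), one-carbon metabolism (10 of 24) and cholesterol synthesis (8 of 28) were lower, and all called members of the proliferation list (11 of 27) were higher. Across all genes, 1038 of 12377 genes (8.39%) were called at an adjusted p below 0.05 by the quasi-likelihood F test of edgeR, adjusted after Benjamini and Hochberg, 512 of them higher in ConvR livers (4.14%) and 526 lower (4.25%). At least a 2-fold difference was found for 119 of the higher and 47 of the lower genes. Among the called genes, 1018 (98.1%) had log2 fold changes of one sign on both diets, 496 of them positive and 522 negative, which is 8.22% of the genes tested. A call of an average favours genes of one sign, and 7387 of all genes tested (59.7%) had one sign. Separation of the mice themselves is a stricter measure, but it was read from the same libraries as the calls, and a call favours it too. In 508 of the called genes (48.9%), 228 higher and 280 lower, the 3 ConvR and the 3 GF mice did not overlap on either diet, as against 677 (5.47%) of all genes tested. On HF/HS alone 27.4% of all genes tested had such separate mice in either direction, and on chow alone 19.6%.

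The number of calls also differed between the diets. Within a diet, 200 genes (1.62%) were called on HF/HS, 109 higher and 91 lower, and 584 (4.72%) on chow, 316 higher and 268 lower. Without ConvR chow mouse 1 or 2 the order was the reverse, with 55 and 46 calls on chow and 174 and 192 on HF/HS. The comparisons on the 2 diets shared no library. Both calls were made for 42 genes, all of one sign, which is 21% of the HF/HS calls and 7.19% of the chow calls. Of the HF/HS calls, 171 (85.5%) had the same sign on chow, and 92 of the 200 (46%) had it with an unadjusted p below 0.05 there, a threshold that 23.4% of all genes passed in either direction. Of the chow calls, 448 (76.7%) had the same sign on HF/HS, and 166 of the 584 (28.4%) had it with an unadjusted p below 0.05, which 15.2% of all genes passed. Among the 1038 genes called on average, 42 were called on both diets, 128 on HF/HS alone, 359 on chow alone and 509 on neither. The log2 fold changes of 622 lay within a factor of 2 of each other, 121 were at least 2 times larger on HF/HS and 275 at least 2 times larger on chow. The interaction of diet and status called 0 genes (0%) by the same test, with 1573 genes at an unadjusted p below 0.05 and a smallest adjusted p of 0.0503. DESeq2 called 150, limma-voom 0 and limma-trend on TPM 1192. Of the calls on TPM 97.8% were positive, and the median interaction over all genes was 0.268 there, against -0.00155 by edgeR. Without ConvR chow 3 the edgeR test called 436, and without ConvR HF/HS 3 it called 21.

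**Figure D1:**
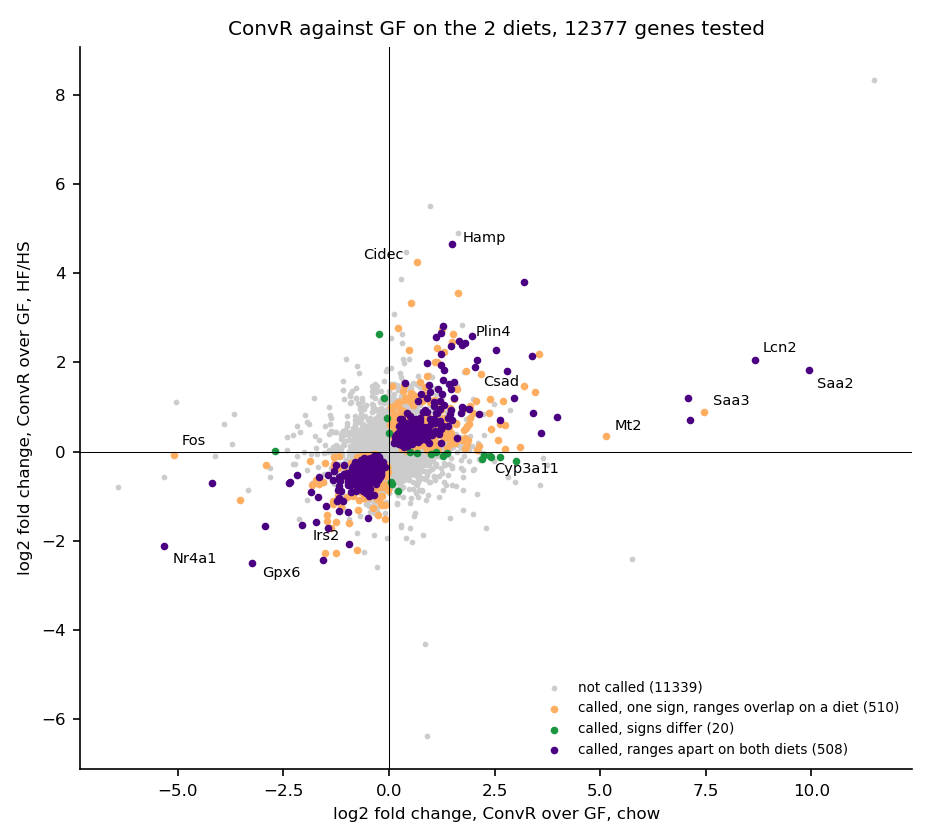
Log2 fold changes of ConvR over GF livers on HF/HS (y axis) against those on chow (x axis), 1 point per tested gene. Indigo points are the 508 called genes whose mice did not overlap on either diet, orange points the other 510 called genes of one sign, green points the 20 called genes whose signs differ, and grey points the 11339 genes not called. Most coloured points lie above and right of 0 or below and left of 0, and the acute phase genes Saa2, Lcn2 and Saa3 lie far to the right.

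The number of calls depended on single mice. For the average effect it was 527, 454 and 1844 with mouse 1, 2 and 3 of the ConvR chow group left out in turn, 612, 453 and 432 with mouse 1, 2 and 3 of the GF HF/HS group left out, 511 without ConvR HF/HS 2, and 791 to 1190 without 1 of the other 5 mice. Of the 1038 genes, 347 kept their call in all 12 of these fits. With ConvR chow 1 and 2 both left out, 180 genes were called, among them 149 of the 1038, and 1037 of the 1038 kept their sign. Without GF HF/HS 2 and 3, which leaves 1 GF mouse on HF/HS that is assumed to vary like the other groups, 19 were called.

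The genes that were higher on both diets were ranked by the smaller of their 2 within-diet log2 fold changes, among called genes of at least 2 CPM whose mice did not overlap on either diet. For genes taken from this ranking, separation within a diet was therefore set by the choice and is not a further result. The 12 at the top were Lcn2, Wfdc2, Csad, Saa2, Plin4, Tsku, Atp2b2, Hamp, Agpat9, Unc13b, Ntrk2 and Slc16a13. Csad encodes the decarboxylase that makes hypotaurine, the precursor of taurine, from cysteine sulfinic acid. Its transcript stood at 72.8, 149 and 162 CPM on HF/HS and 169, 305 and 412 CPM on chow in ConvR livers, against 34.5, 31.5 and 36.7 CPM on HF/HS and 98.2, 67.8 and 50.1 CPM on chow in GF livers. Every ConvR mouse lay above the GF mice of its diet, although GF mice on chow reached the lower end of the ConvR range on HF/HS. For Csad the log2 fold change was 1.97 ± 0.25 on average (adjusted p = 0.00101), 1.90 on HF/HS (adjusted p = 0.0166) and 2.04 on chow (adjusted p = 0.0114). Wfdc2, a secreted protein with whey acidic protein domains, stood at 7.91, 12.5 and 5.69 CPM on HF/HS and 3.57, 3.62 and 2.05 CPM on chow in ConvR livers, against 1.62, 1.42 and 1.22 CPM on HF/HS and 0.344, 1.03 and 0.919 CPM on chow in GF livers. The lowest ConvR mouse, on chow, still exceeded the highest GF mouse of either diet. For Wfdc2 the log2 fold change was 2.28 ± 0.26 on average (adjusted p = 0.0005), 2.60 on HF/HS (adjusted p = 0.00321) and 1.96 on chow (adjusted p = 0.0195).

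Plin4, a perilipin that coats lipid droplets, stood at 26, 54.2 and 22.4 CPM on HF/HS and 9.29, 11.7 and 7.72 CPM on chow in ConvR livers, against 8.4, 5.15 and 5.18 CPM on HF/HS and 2.75, 2.17 and 3.24 CPM on chow in GF livers. Both statuses were higher on HF/HS than on chow, and within a diet they did not overlap. For Plin4 the log2 fold change was 2.12 ± 0.23 on average (adjusted p = 0.000395), 2.45 on HF/HS (adjusted p = 0.00281) and 1.80 on chow (adjusted p = 0.0179). Tsku encodes tsukushi, a small leucine-rich proteoglycan secreted by the liver. It was measured at 68.9, 89.6 and 89.8 CPM on HF/HS and 118, 118 and 113 CPM on chow in ConvR livers, against 18.6, 12 and 16.4 CPM on HF/HS and 12.9, 29.7 and 61.6 CPM on chow in GF livers. All 6 ConvR mice lay above all 6 GF mice, and GF chow mouse 3 was the closest to them. For Tsku the log2 fold change was 2.07 ± 0.26 on average (adjusted p = 0.00109), 2.40 on HF/HS (adjusted p = 0.00762) and 1.73 on chow (adjusted p = 0.0237). Atp2b2, a calcium pump of the plasma membrane, stood at 11.8, 8.02 and 10.1 CPM on HF/HS and 1.04, 1.08 and 1.15 CPM on chow in ConvR livers, against 2.28, 1.42 and 1.63 CPM on HF/HS and 0.413, 0.114 and 0.483 CPM on chow in GF livers. ConvR mice on HF/HS were the highest group, and within each diet all ConvR mice were higher than the GF mice. For Atp2b2 the log2 fold change was 2.07 ± 0.22 on average (adjusted p = 0.000332), 2.48 on HF/HS (adjusted p = 0.000496) and 1.66 on chow (adjusted p = 0.0276).

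Unc13b, a protein that primes vesicles for release, rose by 1.43 ± 0.21 on the log2 scale (adjusted p = 0.00206; 1.40 on HF/HS and 1.46 on chow), and Slc16a13, a member of the monocarboxylate transporter family, by 1.44 ± 0.18 (adjusted p = 0.00101; 1.61 on HF/HS and 1.28 on chow). Agpat9, now named Gpat3, an acyltransferase of triglyceride synthesis, rose by 1.91 ± 0.32 (adjusted p = 0.00386; 2.37 on HF/HS and 1.46 on chow). Ntrk2, the neurotrophin receptor TrkB, stood at 12.1, 9.4 and 3.32 CPM on HF/HS and 0.66, 0.482 and 0.543 CPM on chow in ConvR livers, against 2.13, 0.578 and 0.757 CPM on HF/HS and 0.275, 0.229 and 0.193 CPM on chow in GF livers. Most of its RNA was in ConvR mice on HF/HS, and on chow all values were below 1 CPM. For Ntrk2 the log2 fold change was 2.05 ± 0.46 on average (adjusted p = 0.0174), 2.82 on HF/HS (adjusted p = 0.00766) and 1.28 on chow (adjusted p = 0.352), and the call ended without ConvR chow 1 (adjusted p = 0.0552). The calls of Agpat9 and Ntrk2 ended without ConvR chow 1 and 2 together, and those of the 10 other genes of this group held. Without GF HF/HS 2 and 3, which leaves 1 GF mouse on that diet, the calls of Wfdc2, Plin4, Atp2b2 and Hamp held and those of the 8 other genes ended. Lcn2 and Saa2 are described with the acute phase genes.

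Hamp encodes hepcidin, the hepatocyte hormone that blocks iron export from macrophages and enterocytes, and is induced by iron through BMP signalling and by interleukin 6 through STAT3. It stood at 217, 96.8 and 260.4 CPM on HF/HS and 287, 638 and 839 CPM on chow in ConvR livers, against 15.3, 4.41 and 2.97 CPM on HF/HS and 168, 276 and 178 CPM on chow in GF livers. GF mice on HF/HS had the least of all groups, by a wide margin, and on chow the highest GF mouse lay just below the lowest ConvR mouse. For Hamp the log2 fold change was 3.08 ± 0.39 on average (adjusted p = 0.00109), 4.65 on HF/HS (adjusted p = 0.00321) and 1.50 on chow (adjusted p = 0.0984). The interaction had an unadjusted p of 0.000865 and an adjusted p of 0.171. Mice also carry Hamp2, a close copy, so that reads could be divided wrongly between them. The Hamp promoter is shown because it was 1 of the 11 genes of this group with a RefSeq promoter, of 12, that held a STAT-type motif, TTCNNNGAA on either strand. The window runs from 250 bases before the transcription start to 50 after it in build GRCm38.p6 (chr7:30943980-30944279, minus strand), and capitals mark the motif, whose first base lies 97 bases before the start.
Hamp: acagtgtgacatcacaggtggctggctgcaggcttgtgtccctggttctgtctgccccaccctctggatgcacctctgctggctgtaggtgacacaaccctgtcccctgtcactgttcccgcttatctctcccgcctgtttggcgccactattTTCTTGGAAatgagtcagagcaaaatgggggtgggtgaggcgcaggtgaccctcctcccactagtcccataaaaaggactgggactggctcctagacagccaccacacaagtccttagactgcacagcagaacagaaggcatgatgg

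That motif occurred in the promoters of 9.55% of 27025 RefSeq genes, and in those of 1 of the 11 genes that rose and 1 of 9 matched genes that fell. In the list of iron handling, 18 genes were tested, 2 were higher, 1 was lower and 15 were not called, with a median log2 fold change of 0.12. Hmox1, the heme oxygenase, rose by 0.63 ± 0.17 (adjusted p = 0.0341; 0.32 on HF/HS and 0.95 on chow), and Tfrc, the transferrin receptor for iron uptake, fell (-0.65 ± 0.18 on the log2 scale, adjusted p = 0.0439; -1.204 on HF/HS and -0.10 on chow). Hmox1 lost its call in 8 of the 12 fits that left out a library, with adjusted p up to 0.0862, and kept it without GF chow 1, ConvR chow 3, GF HF/HS 1 or ConvR HF/HS 1. Tfrc lost its call in the same 8 fits (adjusted p up to 0.103).

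**Figure D2:**
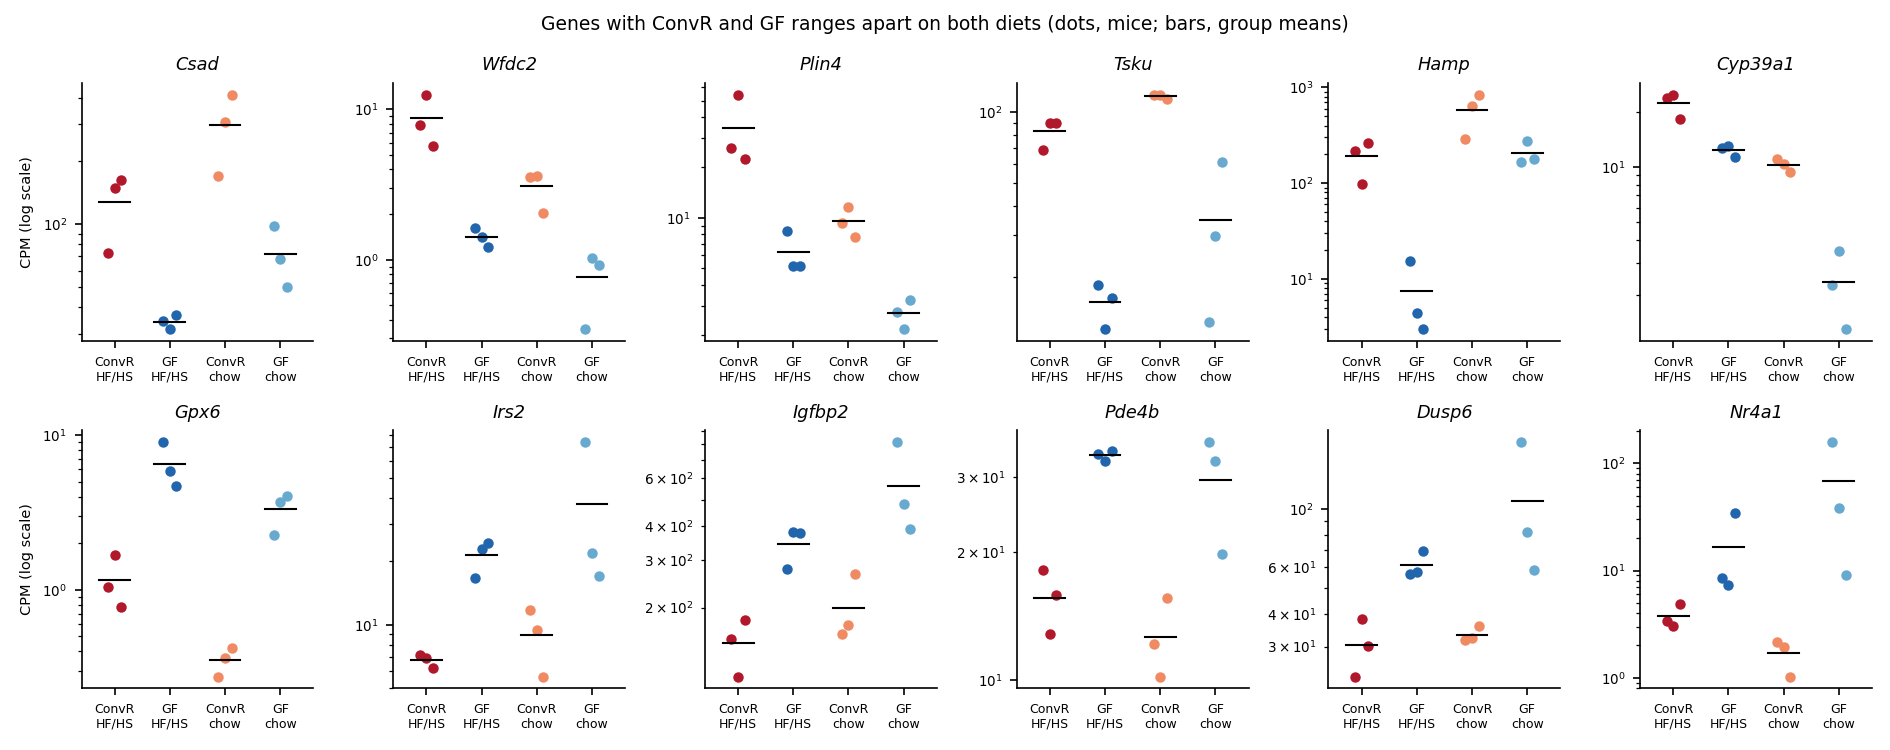
CPM on a log scale of 12 genes whose ConvR and GF mice did not overlap on either diet, 1 dot per mouse, with bars at group means (n = 3 mice per group). The upper panels show Csad, Wfdc2, Plin4, Tsku, Hamp and Cyp39a1, with ConvR dots above the GF dots of the same diet, and the lower panels Gpx6, Irs2, Igfbp2, Pde4b, Dusp6 and Nr4a1, with ConvR dots below.

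The 12 lower genes at the top of the same ranking were Gpx6, Nr4a1, Fst, Irs2, Gpr110, Slc13a2, Igfbp2, Dsg1c, Pde4b, Lect1, Zfp395 and Dusp6. Their separation within a diet was again set by the choice. Gpx6, a glutathione peroxidase, stood at 1.04, 1.68 and 0.773 CPM on HF/HS and 0.275, 0.362 and 0.422 CPM on chow in ConvR livers, against 9.01, 5.83 and 4.66 CPM on HF/HS and 2.27, 3.71 and 4.06 CPM on chow in GF livers. All 6 ConvR mice lay below all 6 GF mice, and the ConvR mice on chow were the lowest. For Gpx6 the log2 fold change was -2.87 ± 0.27 on average (adjusted p = 0.000204), -2.49 on HF/HS (adjusted p = 0.00338) and -3.24 on chow (adjusted p = 0.00286). Pde4b, a phosphodiesterase that breaks down cyclic AMP, stood at 18.2, 12.8 and 15.8 CPM on HF/HS and 12.2, 10.2 and 15.6 CPM on chow in ConvR livers, against 33.9, 32.7 and 34.6 CPM on HF/HS and 36.3, 32.7 and 19.7 CPM on chow in GF livers. The ConvR mice were all below the lowest GF mouse, on both diets. For Pde4b the log2 fold change was -1.17 ± 0.15 on average (adjusted p = 0.00119), -1.11 on HF/HS (adjusted p = 0.0223) and -1.22 on chow (adjusted p = 0.0142). Zfp395, a zinc finger protein, stood at 25, 20.6 and 19.3 CPM on HF/HS and 17.1, 12.2 and 15.7 CPM on chow in ConvR livers, against 35.9, 42.7 and 54.4 CPM on HF/HS and 39, 24.1 and 38.5 CPM on chow in GF livers. Within a diet the mice did not overlap, while the highest ConvR mouse on HF/HS and the lowest GF mouse on chow were nearly level. For Zfp395 the log2 fold change was -1.10 ± 0.14 on average (adjusted p = 0.00109), -1.03 on HF/HS (adjusted p = 0.0201) and -1.17 on chow (adjusted p = 0.013).

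Irs2 is an adaptor that couples the insulin receptor to kinases downstream, and its transcription is repressed by insulin in liver. It stood at 7.21, 6.98 and 6.23 CPM on HF/HS and 11.7, 9.46 and 5.67 CPM on chow in ConvR livers, against 16.7, 23 and 24.6 CPM on HF/HS and 73.9, 22 and 17 CPM on chow in GF livers. All ConvR mice were below all GF mice, and GF chow mouse 1 was far above the others. For Irs2 the log2 fold change was -1.85 ± 0.31 on average (adjusted p = 0.00416), -1.65 on HF/HS (adjusted p = 0.0794) and -2.06 on chow (adjusted p = 0.0255). Igfbp2, a secreted binding protein of insulin-like growth factors, stood at 153, 111 and 181 CPM on HF/HS and 161, 173 and 265 CPM on chow in ConvR livers, against 277, 379 and 378 CPM on HF/HS and 817, 481 and 390.3 CPM on chow in GF livers. Again no ConvR mouse reached a GF mouse of either diet. For Igfbp2 the log2 fold change was -1.36 ± 0.19 on average (adjusted p = 0.00172), -1.22 on HF/HS (adjusted p = 0.0359) and -1.50 on chow (adjusted p = 0.0142). Dusp6, a phosphatase of ERK that is itself induced by ERK signalling, stood at 23.1, 38.2 and 30.2 CPM on HF/HS and 31.7, 32.3 and 35.9 CPM on chow in ConvR livers, against 56.5, 57.6 and 69.5 CPM on HF/HS and 180.2, 81.9 and 58.9 CPM on chow in GF livers. The ConvR mice lay within 23.1 to 38.2 CPM, below every GF mouse. For Dusp6 the log2 fold change was -1.34 ± 0.21 on average (adjusted p = 0.00316), -1.01 on HF/HS (adjusted p = 0.112) and -1.68 on chow (adjusted p = 0.0143).

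Among the other genes of this group, Gpr110, an adhesion receptor now named Adgrf1, fell by 1.99 on the log2 scale (adjusted p = 0.00211), with -2.42 on HF/HS and -1.57 on chow. Dsg1c, a desmoglein of cell junctions, fell by 1.25 (adjusted p = 0.00316), with -1.33 on HF/HS and -1.17 on chow. Lect1, now named Cnmd, fell by 1.09 (adjusted p = 0.011), with -1.10 on HF/HS and -1.08 on chow. Slc13a2, a transporter of dicarboxylates, fell by 1.58 (adjusted p = 0.0122), with -1.71 on HF/HS and -1.45 on chow. Fst, the activin antagonist follistatin, stood at 1.51, 2.67 and 2.37 CPM on HF/HS and 1.93, 0.964 and 1.15 CPM on chow in ConvR livers, against 5.26, 8.36 and 7.22 CPM on HF/HS and 24.6, 4.57 and 2.66 CPM on chow in GF livers. A single GF mouse, chow mouse 1, held the highest level, and the lowest GF value was near the highest ConvR one. For Fst the log2 fold change was -2.31 ± 0.48 on average (adjusted p = 0.0133), -1.67 on HF/HS (adjusted p = 0.221) and -2.94 on chow (adjusted p = 0.0344). Each of the 12 kept its call whichever single library was left out. The calls of Nr4a1, Fst, Slc13a2, Lect1 and Dusp6 ended without ConvR chow 1 and 2 together. Without GF HF/HS 2 and 3 the calls of Gpx6, Pde4b and Zfp395 held and those of the 9 other genes ended.

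The promoters of Gpx6, Irs2 and Igfbp2 are shown because each held the E-box CACGTG, the core to which basic helix-loop-helix factors bind. It was found in 3 of the 9 matched genes of the 12 that fell, in 1 of the 11 matched genes that rose, and in 8.09% of 27025 RefSeq genes. Capitals mark the E-box, which begins 121 bases before the start of Gpx6 (chr13:21311953-21312252, plus strand), 44 before that of Irs2 (chr8:11008880-11009179, minus strand) and 142 before 1 of the 2 starts of Igfbp2 (chr1:72824230-72824529, plus strand). The promoter of the other Igfbp2 start held no E-box. The build is GRCm38.p6, and a match is a description of the letters only.
Gpx6: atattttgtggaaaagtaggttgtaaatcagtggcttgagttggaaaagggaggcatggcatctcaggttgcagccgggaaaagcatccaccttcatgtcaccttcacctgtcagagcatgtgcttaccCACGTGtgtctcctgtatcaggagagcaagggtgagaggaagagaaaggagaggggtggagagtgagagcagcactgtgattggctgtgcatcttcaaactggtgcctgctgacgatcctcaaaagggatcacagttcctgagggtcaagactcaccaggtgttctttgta
Irs2: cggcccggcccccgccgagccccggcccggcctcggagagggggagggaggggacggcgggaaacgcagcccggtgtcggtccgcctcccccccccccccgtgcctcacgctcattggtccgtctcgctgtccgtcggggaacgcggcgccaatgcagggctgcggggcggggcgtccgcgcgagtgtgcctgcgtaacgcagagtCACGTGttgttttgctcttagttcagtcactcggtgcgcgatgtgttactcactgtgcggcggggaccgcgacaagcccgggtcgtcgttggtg
Igfbp2: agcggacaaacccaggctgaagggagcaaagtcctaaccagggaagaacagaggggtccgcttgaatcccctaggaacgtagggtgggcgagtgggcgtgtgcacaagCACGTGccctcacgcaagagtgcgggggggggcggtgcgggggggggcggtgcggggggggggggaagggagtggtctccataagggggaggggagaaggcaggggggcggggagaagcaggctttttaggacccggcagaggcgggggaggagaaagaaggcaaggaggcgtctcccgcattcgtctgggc

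The cyclic AMP response element TGACGTCA, present in the promoters of 2.03% of genes, and the forkhead motif TGTTTAC, present in 4.05%, were each found in 0 of the 11 and 0 of the 9 matched genes. All start sites of these genes were searched on either strand.

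Gene lists of pathways and cell types were read as counts of called members and as medians, beside 8.39% called and a median log2 fold change of -0.0047 over all genes tested. The lists with the most members called higher were acute phase genes, proliferation and microbial sensing. Those with the most called lower were ribosomal proteins, amino acid catabolism with ureagenesis, methionine with one-carbon metabolism, and cholesterol synthesis. In bulk tissue, fewer cells of a type and less RNA per cell cannot be told apart. Leaving out GF HF/HS 2 and 3, whose files differ in gene order and format from the others, leaves 1 GF mouse on that diet. The average medians were then 0.93 for acute phase genes, 0.55 for proliferation and 0.29 for microbial sensing. They were -0.17 for ribosomal proteins, -0.21 for amino acid breakdown, -0.22 for methionine and -0.42 for cholesterol synthesis. Most calls of single genes ended in that fit.

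**Figure D3:**
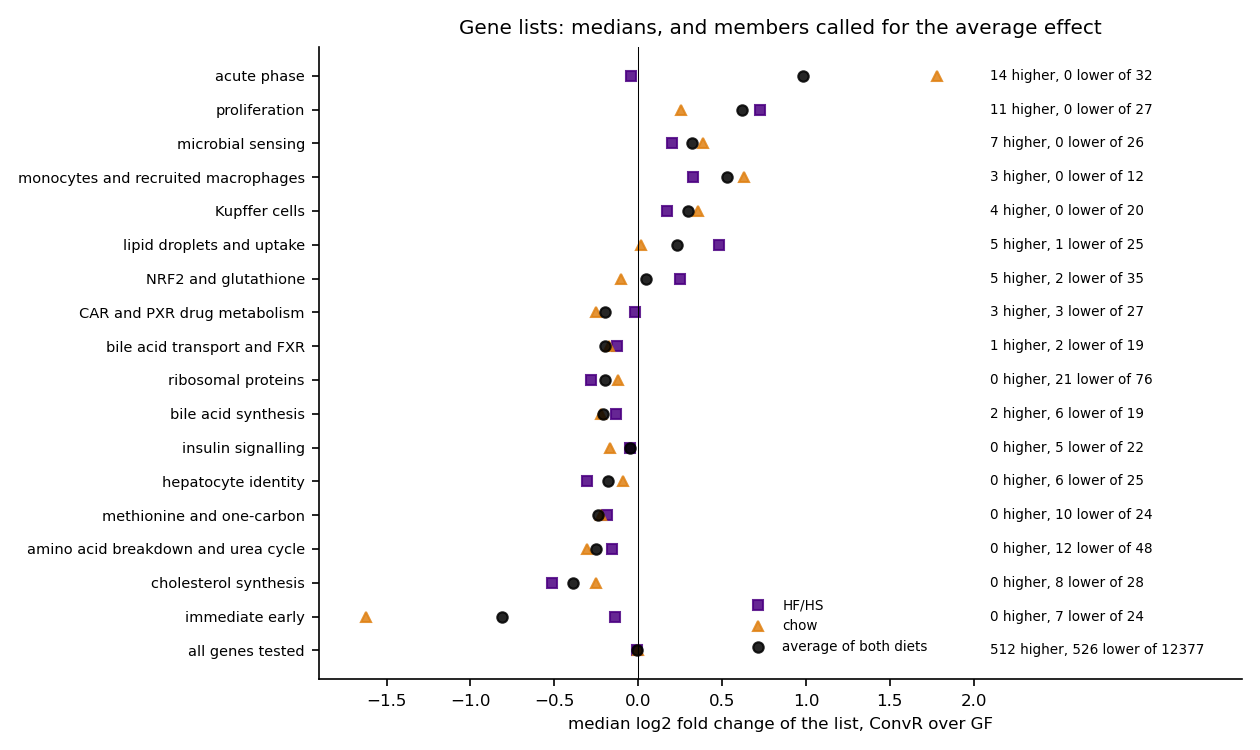
Median log2 fold change of ConvR over GF livers for 17 gene lists and for all genes tested, on HF/HS (squares), on chow (triangles) and on average (circles), with the number of members called for the average effect at the right. The squares and triangles lie close together for the amino acid, methionine and bile acid lists, and far apart for the acute phase and immediate early lists.

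Genes of bile acid synthesis were divided. The list held 19 tested genes, of which 2 were higher, 6 were lower and 11 were not called (median log2 fold change -0.21, with -0.13 on HF/HS and -0.22 on chow). Cyp39a1, a hydroxylase of oxysterols that feeds them into bile acid synthesis, stood at 23.7, 24.7 and 18.2 CPM on HF/HS and 11.1, 10.3 and 9.41 CPM on chow in ConvR livers, against 12.7, 12.9 and 11.3 CPM on HF/HS and 2.27, 3.48 and 1.3 CPM on chow in GF livers. Both statuses were higher on HF/HS, and within a diet the mice were well separated. For Cyp39a1 the log2 fold change was 1.49 ± 0.15 on average (adjusted p = 0.000317), 0.85 on HF/HS (adjusted p = 0.043) and 2.14 on chow (adjusted p = 0.000742). Acnat2, an acyl-CoA amino acid N-acyltransferase of peroxisomes that is related to the enzyme joining bile acids to taurine, stood at 76.6, 58.1 and 55.7 CPM on HF/HS and 109, 118 and 26.8 CPM on chow in ConvR livers, against 18.6, 27.3 and 37.5 CPM on HF/HS and 14.6, 10.2 and 7.88 CPM on chow in GF livers. The groups did not overlap within a diet, and ConvR chow mouse 3 was well below its group mates. For Acnat2 the log2 fold change was 2.08 ± 0.30 on average (adjusted p = 0.00211), 1.19 on HF/HS (adjusted p = 0.159) and 2.97 on chow (adjusted p = 0.00612), values that are uncertain because reads could be divided wrongly with its near copy Acnat1.

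The 6 lower genes of that list differed by -0.62 to -0.22 on the log2 scale. They were Cyp2c70, the mouse enzyme that makes muricholic acids (-0.62 ± 0.16, adjusted p = 0.0343), Cyp27a1, the sterol 27-hydroxylase of the acidic pathway (-0.22 ± 0.06, adjusted p = 0.035), Akr1c6, Hsd3b7, Amacr and Slc27a5, the last 4 acting on steroid rings, side chains or CoA esters. Cyp2c70 and Cyp27a1 kept their calls in 6 and 4 of the 12 fits without 1 library, with adjusted p up to 0.0773 and 0.0922. With the 12 libraries fitted alone, or without ConvR chow 1 and 2, 2 members were higher and 0 lower. Cyp7a1, the rate-limiting enzyme of the classical pathway, stood at 12.4, 23.7 and 16.6 CPM on HF/HS and 49.8, 38 and 74.7 CPM on chow in ConvR livers, against 17.2, 25.1 and 20.3 CPM on HF/HS and 20.03, 37.6 and 39.6 CPM on chow in GF livers. Its groups overlapped on both diets, with log2 fold changes of 0.24 ± 0.21 on average (adjusted p = 0.503), -0.25 on HF/HS (adjusted p = 0.767) and 0.74 on chow (adjusted p = 0.153).

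Of 19 genes of bile acid transport and FXR signalling, 1 was higher, 2 were lower and 16 were not called. Slc10a2, the sodium-dependent bile acid transporter of ileum and cholangiocytes, stood at 23.3, 25.6 and 23.8 CPM on HF/HS and 30.9, 36.4 and 18.3 CPM on chow in ConvR livers, against 18.9, 15.1 and 14.6 CPM on HF/HS and 17.3, 11 and 7.54 CPM on chow in GF livers. Within each diet the ConvR mice were higher. For Slc10a2 the log2 fold change was 0.93 ± 0.18 on average (adjusted p = 0.00906), 0.58 on HF/HS (adjusted p = 0.281) and 1.27 on chow (adjusted p = 0.0195), beside 12 tested cholangiocyte markers of which 0 were higher and 2 lower, and 14 listed with none at 0 in all 12 libraries and sums of 106.9 to 218.8 CPM on HF/HS and 116.7 to 217 CPM on chow in ConvR livers, against 123.5 to 144.7 CPM and 117.3 to 146.1 CPM in GF livers. The part of these cells in the result was not tested. Klb, the co-receptor for the ileal hormone FGF15 that reports bile acid return to the liver, stood at 30.6, 32.4 and 29.6 CPM on HF/HS and 18.7, 22.4 and 21.5 CPM on chow in ConvR livers, against 35.5, 49.5 and 55.3 CPM on HF/HS and 36.8, 33.1 and 28.8 CPM on chow in GF livers. ConvR mice lay below the GF mice of their diet. For Klb the log2 fold change was -0.63 ± 0.11 on average (adjusted p = 0.00422), -0.60 on HF/HS (adjusted p = 0.0594) and -0.66 on chow (adjusted p = 0.0324). Abcg8, which with Abcg5 exports sterols into bile, fell (-0.67 ± 0.14, adjusted p = 0.0148), with -0.29 on HF/HS and -1.05 on chow. The calls of Slc10a2, Klb and Abcg8 ended without ConvR chow 1 and 2 together.

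In the list of taurine and cysteine metabolism, 15 genes were tested, 1 was higher (Csad), 3 were lower and 11 were not called. The lower genes were Got1, the cytosolic aspartate aminotransferase (-0.79 ± 0.17, adjusted p = 0.0162), Cth, the cystathionine lyase that makes cysteine (-0.68 ± 0.15, adjusted p = 0.0174), and Cdo1, the dioxygenase that supplies the substrate of Csad (-0.27 ± 0.08, adjusted p = 0.0442). Csad and the enzyme before it had opposite signs on both diets, Cdo1 with -0.39 on HF/HS and -0.15 on chow on the log2 scale. The Cdo1 call was kept in 3 of the 12 fits without 1 library (adjusted p up to 0.112), and Cth lost its call without GF HF/HS 3 (adjusted p = 0.0501).

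Every called enzyme that breaks down amino acids or forms urea was lower in ConvR livers. Of 48 tested genes, 0 were higher, 12 were lower and 36 were not called, with a median log2 fold change of -0.25, or -0.16 on HF/HS and -0.31 on chow. On both diets 35 of 48 members were negative, beside 3825 of all 12377 genes tested. Cps1, the carbamoyl phosphate synthetase that starts the urea cycle, stood at 2984, 1725 and 2348 CPM on HF/HS and 3308, 2770 and 2856 CPM on chow in ConvR livers, against 3787, 4036 and 3959 CPM on HF/HS and 5222, 4589 and 3669 CPM on chow in GF livers. All ConvR mice were below all GF mice. For Cps1 the log2 fold change was -0.67 ± 0.13 on average (adjusted p = 0.0104), -0.74 on HF/HS (adjusted p = 0.0633) and -0.59 on chow (adjusted p = 0.0777). Agxt, the peroxisomal enzyme that removes glyoxylate, fell (-0.90 ± 0.15, adjusted p = 0.00383), as did the mitochondrial alanine-glyoxylate aminotransferase Agxt2 (-0.48 ± 0.09, adjusted p = 0.00843). Other members that were lower included Hpd and Hgd of tyrosine breakdown, Got1, Haao, Ftcd, Oat, Aldh4a1 and Ivd, and the log2 fold changes of the 12 lower members ranged from -0.90 to -0.25. The count of lower members was 7 with no normalization factors or on TPM, 2 without ConvR chow 1 and 2, where Cps1, Agxt and Agxt2 lost their calls, and 19 by DESeq2. The average median was negative in each, but the HF/HS median turned to 0.01 with no normalization factors and 0.04 on TPM.

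The methionine and one-carbon list, which covers the methyl donor cycle of betaine, choline and folate, had 24 tested genes, 0 higher, 10 lower and 14 not called (median -0.24, with -0.18 on HF/HS and -0.22 on chow). Dmgdh, the mitochondrial dimethylglycine dehydrogenase of choline breakdown, stood at 547, 447 and 519 CPM on HF/HS and 381, 362 and 456 CPM on chow in ConvR livers, against 711, 722 and 779.8 CPM on HF/HS and 932, 809 and 874 CPM on chow in GF livers. Every ConvR mouse was lower than every GF mouse. For Dmgdh the log2 fold change was -0.84 ± 0.08 on average (adjusted p = 0.000204), -0.55 on HF/HS (adjusted p = 0.0297) and -1.12 on chow (adjusted p = 0.000623), and the unadjusted interaction p was 0.00281 (adjusted p = 0.215). Gnmt, the glycine N-methyltransferase that disposes of S-adenosylmethionine, stood at 863, 660.2 and 728 CPM on HF/HS and 905, 937 and 1096 CPM on chow in ConvR livers, against 1033, 1120 and 1135 CPM on HF/HS and 1210, 1217 and 1467 CPM on chow in GF livers. Within a diet the ranges did not meet. For Gnmt the log2 fold change was -0.48 ± 0.09 on average (adjusted p = 0.00841), -0.55 on HF/HS (adjusted p = 0.0481) and -0.41 on chow (adjusted p = 0.0782). Bhmt2 (-0.32 ± 0.07, adjusted p = 0.0179), Bhmt, Ahcy, Sardh, Pipox, Mthfd1, Shmt2 and Cth were also lower. Bhmt2 lost its call without ConvR HF/HS 2 (adjusted p = 0.0515). The number of lower members was 4 with no normalization factors, 3 on TPM and 1 without ConvR chow 1 and 2, and the average median was negative in each, but the HF/HS median was -0.01 with no normalization factors and 0.01 on TPM.

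**Figure D4:**
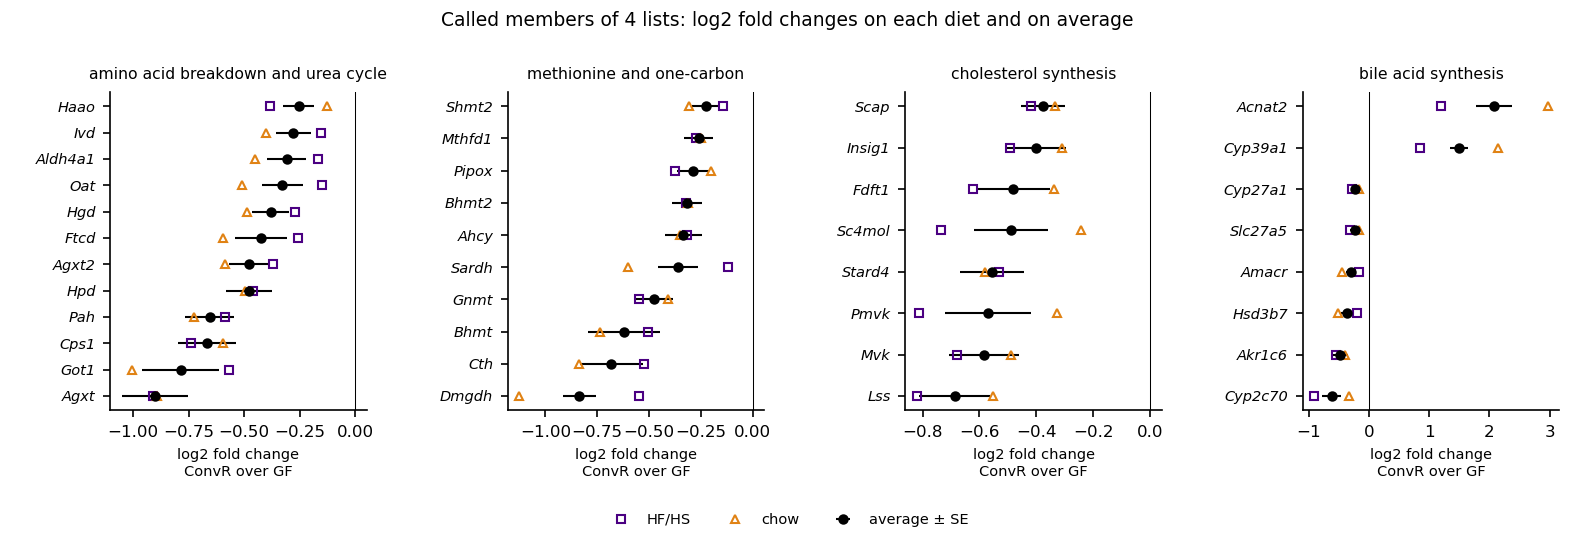
Log2 fold changes of ConvR over GF livers for the called members of 4 lists, on average (filled circles, with standard errors), on HF/HS (squares) and on chow (triangles). All members called in the amino acid, methionine and cholesterol lists lie left of 0 on both diets, while the bile acid list has Acnat2 and Cyp39a1 to the right and 6 members to the left.

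Every called gene of cholesterol synthesis, a pathway driven by SREBP2, was lower. Of 28 tested, 0 were higher, 8 were lower and 20 were not called, with a median log2 fold change of -0.39, or -0.51 on HF/HS and -0.25 on chow. Lss, the lanosterol synthase, stood at 26.8, 46 and 29.2 CPM on HF/HS and 58.1, 59.1 and 63.9 CPM on chow in ConvR livers, against 71.3, 60.8 and 47.7 CPM on HF/HS and 99.5, 87 and 79.2 CPM on chow in GF livers. Mice of the same diet did not overlap, although ConvR HF/HS mouse 2 and GF HF/HS mouse 3 were near one another. For Lss the log2 fold change was -0.69 ± 0.12 on average (adjusted p = 0.00626), -0.82 on HF/HS (adjusted p = 0.0349) and -0.55 on chow (adjusted p = 0.0807). Mvk, the mevalonate kinase, stood at 7.99, 13.5 and 9.69 CPM on HF/HS and 35.4, 34.2 and 32.4 CPM on chow in ConvR livers, against 17.4, 17.4 and 15 CPM on HF/HS and 59.2, 46.7 and 37.4 CPM on chow in GF livers. Both statuses were higher on chow than on HF/HS, and within a diet ConvR mice were lower. For Mvk the log2 fold change was -0.58 ± 0.12 on average (adjusted p = 0.0142), -0.68 on HF/HS (adjusted p = 0.0748) and -0.49 on chow (adjusted p = 0.104). Stard4, a sterol carrier (-0.56 ± 0.11, adjusted p = 0.0119), and Scap, the escort of SREBP proteins (-0.38 ± 0.08, adjusted p = 0.0129), fell too, as did Insig1, Pmvk, Sc4mol (now Msmo1) and Fdft1. No member was called without ConvR chow 1 and 2, where the median was -0.34. With no normalization factors 1 member was higher and 4 were lower, on TPM 0 and 4, and by DESeq2 1 and 12. In the list of fatty acid synthesis, 28 genes were tested, 0 were higher, 3 were lower and 25 were not called. The 3 were Mid1ip1 (-0.42 ± 0.11, adjusted p = 0.0291), Acly, the ATP citrate lyase (-0.50 ± 0.13, adjusted p = 0.037), and Mlxipl, the carbohydrate sensor ChREBP (-0.31 ± 0.09, adjusted p = 0.0442), and each kept its call in 4 of the 12 fits without 1 library (adjusted p up to 0.0753, 0.0919 and 0.109).

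Several lipid droplet genes were higher, with larger values on HF/HS. Of 25 tested, 5 were higher, 1 was lower and 19 were not called, with a median of 0.23 on average, 0.48 on HF/HS and 0.02 on chow. Beside Plin4, Plin5, which joins lipid droplets to mitochondria, stood at 67.7, 69.96 and 45.8 CPM on HF/HS and 43.9, 45.9 and 48 CPM on chow in ConvR livers, against 35, 30.6 and 34.2 CPM on HF/HS and 33.5, 30.3 and 38.4 CPM on chow in GF livers. All ConvR mice were above all GF mice. For Plin5 the log2 fold change was 0.65 ± 0.09 on average (adjusted p = 0.00211), 0.88 on HF/HS (adjusted p = 0.00629) and 0.43 on chow (adjusted p = 0.0773). Cidec, a protein that fuses lipid droplets, stood at 26.4, 69.5 and 9.01 CPM on HF/HS and 1.04, 0.723 and 3.56 CPM on chow in ConvR livers, against 2.63, 1.37 and 1.4 CPM on HF/HS and 1.72, 0.743 and 0.967 CPM on chow in GF livers. Its difference lay in the HF/HS mice, and on chow the groups overlapped. For Cidec the log2 fold change was 2.46 ± 0.54 on average (adjusted p = 0.0161), 4.26 on HF/HS (adjusted p = 0.00656) and 0.66 on chow (adjusted p = 0.676), and the call ended without ConvR chow 3 (adjusted p = 0.0568). Lpl, the lipoprotein lipase, stood at 19.96, 26.2 and 29.3 CPM on HF/HS and 22.2, 16.6 and 21.8 CPM on chow in ConvR livers, against 40.1, 39.4 and 32.5 CPM on HF/HS and 35.5, 38.2 and 34.5 CPM on chow in GF livers. It was lower in every ConvR mouse than in any GF mouse. For Lpl the log2 fold change was -0.70 ± 0.11 on average (adjusted p = 0.00291), -0.57 on HF/HS (adjusted p = 0.0734) and -0.84 on chow (adjusted p = 0.0147). Mgll and Mogat1, a lipase and an acyltransferase of monoacylglycerol, were the other higher members. Adipocyte markers summed to 5480 to 6547 CPM on HF/HS and 3302 to 5414 CPM on chow in ConvR livers, against 6181 to 6830 CPM and 5976 to 8784 CPM in GF livers, with 2 of 12 at 0 in all 12 libraries. Of 6 tested, 1 was higher (Cidec) and 1 lower (Adrb3, the beta-3 adrenergic receptor, -1.004 ± 0.15, adjusted p = 0.00292), and their part in the result was not tested.

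In the list of fatty acid oxidation and PPAR alpha targets, 44 genes were tested, 3 were higher, 1 was lower and 40 were not called. Ucp2, a mitochondrial carrier, stood at 31.7, 46.5 and 31.4 CPM on HF/HS and 29.97, 36.6 and 26.8 CPM on chow in ConvR livers, against 20.8, 19.5 and 18.6 CPM on HF/HS and 14.1, 15.8 and 23.4 CPM on chow in GF livers. All ConvR mice exceeded all GF mice. For Ucp2 the log2 fold change was 0.85 ± 0.13 on average (adjusted p = 0.00316), 0.89 on HF/HS (adjusted p = 0.0305) and 0.80 on chow (adjusted p = 0.0337). Pex11a, which divides peroxisomes (0.88 ± 0.14, adjusted p = 0.00356), and Slc22a5, the carnitine transporter (0.52 ± 0.10, adjusted p = 0.0068), were higher, and Cyp4a12b, an omega-hydroxylase, was lower (-0.76 ± 0.21, adjusted p = 0.0392), the last in 4 of the 12 fits without 1 library (adjusted p up to 0.0947).

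Of 22 genes of insulin signalling, 0 were higher, 5 were lower and 17 were not called. Beside Irs2 they included Irs1, the other main substrate of the insulin receptor in liver, which stood at 33.4, 25 and 34.7 CPM on HF/HS and 20.4, 12.5 and 19 CPM on chow in ConvR livers, against 46.7, 49.7 and 54.3 CPM on HF/HS and 34.5, 25.2 and 33.5 CPM on chow in GF livers. Its mice did not overlap within a diet. For Irs1 the log2 fold change was -0.77 ± 0.13 on average (adjusted p = 0.00386), -0.69 on HF/HS (adjusted p = 0.0648) and -0.84 on chow (adjusted p = 0.0264). Grb14, an inhibitor of the insulin receptor, stood at 53.3, 41.7 and 42.9 CPM on HF/HS and 45.1, 40.02 and 43.7 CPM on chow in ConvR livers, against 60.4, 60.2 and 53.7 CPM on HF/HS and 72.4, 57.9 and 58.5 CPM on chow in GF livers. The highest ConvR and the lowest GF mice were nearly level. For Grb14 the log2 fold change was -0.44 ± 0.08 on average (adjusted p = 0.0049), -0.34 on HF/HS (adjusted p = 0.136) and -0.55 on chow (adjusted p = 0.0195). Igfbp1, a binding protein repressed by insulin, stood at 75.6, 114 and 53.4 CPM on HF/HS and 69.6, 50.6 and 10.2 CPM on chow in ConvR livers, against 149.8, 221 and 141 CPM on HF/HS and 1195, 245 and 66.4 CPM on chow in GF livers. GF chow mouse 1 was far above the rest, and GF chow mouse 3 lay within the range of the ConvR chow mice. For Igfbp1 the log2 fold change was -2.30 ± 0.56 on average (adjusted p = 0.0252), -1.08 on HF/HS (adjusted p = 0.552) and -3.53 on chow (adjusted p = 0.0332), and the call ended without ConvR chow 2, GF HF/HS 2, ConvR HF/HS 1 or ConvR HF/HS 3 (adjusted p up to 0.0603). Trib3, an inhibitor of AKT, was the fifth, with its call in 3 of the 12 fits without 1 library (adjusted p up to 0.096). The list median was -0.05 and turned to 0.01 with no normalization factors.

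Of 31 genes of gluconeogenesis, glycolysis and glycogen, 0 were higher, 2 were lower and 29 were not called. G6pc, the glucose 6-phosphatase that releases glucose, stood at 494, 444 and 529.5 CPM on HF/HS and 162, 73.4 and 188 CPM on chow in ConvR livers, against 753, 847 and 781 CPM on HF/HS and 1264, 561 and 351 CPM on chow in GF livers. ConvR mice on chow were the lowest group, and no ConvR mouse reached a GF mouse of its diet. For G6pc the log2 fold change was -1.53 ± 0.27 on average (adjusted p = 0.00536), -0.70 on HF/HS (adjusted p = 0.411) and -2.36 on chow (adjusted p = 0.0106). Gckr, the regulator of glucokinase, fell (-0.45 ± 0.08, adjusted p = 0.00781), with -0.38 on HF/HS and -0.52 on chow. In the growth hormone and IGF list, 14 genes were tested, 0 were higher, 3 were lower and 11 were not called: Igfbp2, Igfbp1 and Stat5b, the transducer of growth hormone (-0.45 ± 0.11, adjusted p = 0.0298), the last called in 7 of the 12 fits without 1 library (adjusted p up to 0.0773). The calls of Grb14, Igfbp1, G6pc, Gckr and Stat5b ended without ConvR chow 1 and 2.

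Genes of xenobiotic metabolism were called in both directions. In the CAR and PXR list 27 genes were tested, 3 were higher, 3 were lower and 21 were not called. Cyp3a11, a P450 induced through PXR, stood at 815, 1146 and 734 CPM on HF/HS and 1505, 1941 and 3680 CPM on chow in ConvR livers, against 826, 1004 and 996 CPM on HF/HS and 355, 380.5 and 762 CPM on chow in GF livers. On HF/HS the groups overlapped, and on chow every ConvR mouse was higher. For Cyp3a11 the log2 fold change was 1.09 ± 0.23 on average (adjusted p = 0.0134), -0.07 on HF/HS (adjusted p = 0.954) and 2.25 on chow (adjusted p = 0.00592), with an unadjusted interaction p of 0.00016 (adjusted p = 0.0974). Cyp2c54 (-1.28 ± 0.22, adjusted p = 0.00416) and Cyp2c50 (-0.77 ± 0.18, adjusted p = 0.0232) were lower, with log2 fold changes of -1.60 on HF/HS and -0.95 on chow for Cyp2c54 and -0.89 and -0.66 for Cyp2c50, and Cyp2c38 was higher, values that are uncertain because Cyp2c and Cyp3a genes are near copies of each other. Nr1i3, the receptor CAR itself, was lower (-0.40 ± 0.10, adjusted p = 0.0298), and Alas1, the first enzyme of heme synthesis, was higher. Cyp2c50 and Nr1i3 each kept their calls in 7 of the 12 fits without 1 library (adjusted p up to 0.0645 and 0.076).

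Of 11 targets of the aryl hydrocarbon receptor, 1 was higher, 1 was lower and 9 were not called. Cyp1a2, its constitutive target in hepatocytes, stood at 244, 183 and 272 CPM on HF/HS and 717, 608 and 795 CPM on chow in ConvR livers, against 414, 484 and 494 CPM on HF/HS and 953, 969 and 1017 CPM on chow in GF livers. Chow mice were higher than HF/HS mice, and within each diet ConvR mice were lower. For Cyp1a2 the log2 fold change was -0.73 ± 0.10 on average (adjusted p = 0.00137), -0.99 on HF/HS (adjusted p = 0.00533) and -0.47 on chow (adjusted p = 0.0651). Cyp1b1 was higher (1.22 ± 0.32, adjusted p = 0.035), in 4 of the 12 fits without 1 library (adjusted p up to 0.0903). Of 35 NRF2 and glutathione genes 5 were higher, 2 were lower and 28 were not called. Gstp2 was higher (1.34 ± 0.29, adjusted p = 0.0161), whereas Gstm7 (-0.51 ± 0.10, adjusted p = 0.00843) and Gstm6 (-0.73 ± 0.15, adjusted p = 0.0125) were lower, all of them glutathione S-transferases with near copies. Of 21 genes of glucuronidation and sulfation 2 were higher, 3 were lower and 16 were not called, with Ugdh, which makes UDP-glucuronate, higher (0.47 ± 0.11, adjusted p = 0.0205) and Sult1b1 (-0.79 ± 0.18, adjusted p = 0.0198), Ugt2b1 and Sult1a1 lower. The calls of Ugdh and Sult1a1 ended without GF HF/HS 2 (adjusted p = 0.0526 and 0.0556) and that of Sult1b1 without GF HF/HS 3 (adjusted p = 0.0501).

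Every called proliferation gene was higher in ConvR livers. Of 27 tested, 11 were higher, 0 were lower and 16 were not called, with a median of 0.62 on average, 0.73 on HF/HS and 0.26 on chow. On both diets 20 of 27 were positive, beside 3562 of all 12377 genes tested. Mki67, the antigen of cycling cells, stood at 8.16, 9.1 and 3.64 CPM on HF/HS and 4.73, 7.23 and 3.74 CPM on chow in ConvR livers, against 3.04, 2.31 and 3.2 CPM on HF/HS and 1.31, 2.57 and 2.61 CPM on chow in GF livers. All ConvR mice were above all GF mice. For Mki67 the log2 fold change was 1.27 ± 0.24 on average (adjusted p = 0.00843), 1.29 on HF/HS (adjusted p = 0.067) and 1.25 on chow (adjusted p = 0.0558). Cdk1, the mitotic kinase, stood at 2.42, 2.18 and 1.27 CPM on HF/HS and 1.32, 1.99 and 1.75 CPM on chow in ConvR livers, against 0.759, 0.736 and 0.699 CPM on HF/HS and 0.688, 0.514 and 1.01 CPM on chow in GF livers. It was near 1 CPM or below in the GF mice and higher in each ConvR mouse. For Cdk1 the log2 fold change was 1.28 ± 0.23 on average (adjusted p = 0.00558), 1.41 on HF/HS (adjusted p = 0.0399) and 1.16 on chow (adjusted p = 0.0594). Mcm6, a subunit of the replicative helicase (0.65 ± 0.14, adjusted p = 0.0142), Aurkb, Cdkn1a, Top2a, Ccnd1, Mcm2, Cdc20, Plk1 and Ccnb1 were also higher. Cdc20, an activator of the anaphase-promoting complex, differed in sign between the diets (2.64 on HF/HS and -0.24 on chow). Cdkn1a encodes p21, an inhibitor of the cycle. The 28 listed genes summed to 138.5 to 209.8 CPM on HF/HS and 136.6 to 148.2 CPM on chow in ConvR livers, against 113.7 to 116.8 CPM and 114.7 to 122 CPM in GF livers. Mki67 and Cdk1 reached at most 9.1 and 2.42 CPM, so that other members made up most of these sums. With a stricter filter on low counts 6 members were higher and the median was 0.31. With the 12 libraries alone 6 were higher and with the additive model 5, each with a median of 0.63. The median was 0.55 and 2 members were called without ConvR chow 1 and 2, with Mki67 and Mcm6 among those lost.

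The called macrophage markers were also higher. Of 20 Kupffer cell markers tested, 4 were higher, 0 were lower and 16 were not called, with a median of 0.30, or 0.17 on HF/HS and 0.36 on chow. On both diets 16 of 20 were positive, beside 3562 of all 12377 genes tested. None was at 0 in all 12 libraries, and their sum was 823.5 to 1240 CPM on HF/HS and 952.1 to 1182 CPM on chow in ConvR livers, against 765 to 893.9 CPM and 775.5 to 885.8 CPM in GF livers. Id3, a factor that Kupffer cells need and that other cells also express, stood at 22.7, 18.3 and 29.8 CPM on HF/HS and 75, 129.9 and 144 CPM on chow in ConvR livers, against 15.2, 10.2 and 11.2 CPM on HF/HS and 37.7, 63.8 and 48.6 CPM on chow in GF livers. The ConvR mice were higher within each diet. For Id3 the log2 fold change was 1.08 ± 0.18 on average (adjusted p = 0.00352), 0.95 on HF/HS (adjusted p = 0.0805) and 1.22 on chow (adjusted p = 0.0195). Cd68 (0.52 ± 0.13, adjusted p = 0.0302), Hmox1 and the hemoglobin receptor Cd163 (0.56 ± 0.16, adjusted p = 0.0437; -0.0040 on HF/HS and 1.11 on chow) were the others, and Cd68 and Cd163 kept their calls in 6 and 4 of the 12 fits without 1 library (adjusted p up to 0.0806 and 0.112). Clec4f, a marker specific to Kupffer cells that was named after its values were seen, ran at 103 to 136 CPM (median 116) in ConvR livers, against 83.1 to 119 CPM (median 101) in GF livers and was not called (0.23 ± 0.10, adjusted p = 0.188). Of 12 markers of monocytes and recruited macrophages 3 were higher, 0 were lower and 9 were not called: the chemokine receptors Ccr2 (1.21 ± 0.31, adjusted p = 0.0332) and Cx3cr1 (1.15 ± 0.30, adjusted p = 0.0354), and Trem2 (1.43 ± 0.37, adjusted p = 0.0338), each with its call in 5 of the 12 fits (adjusted p up to 0.0831, 0.0927 and 0.0843). The 16 listed monocyte and recruited macrophage markers summed to 1543 to 1887 CPM on HF/HS and 951.3 to 1802 CPM on chow in ConvR livers, against 1808 to 2083 CPM and 1131 to 1458 CPM in GF livers, so that on HF/HS the ConvR sums lay mostly below those of GF mice. Without ConvR chow 1 and 2 the Kupffer cell median was 0.28 with 1 call, and the monocyte median 0.32 with 0 calls.

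Sensors of bacterial products, which include Toll-like receptors and their adaptors, were higher in 7 of 26 tested genes and lower in 0, with 19 not called and a median of 0.32. Irak3, which restrains Toll-like receptor signalling in macrophages, stood at 1.17, 1.68 and 2.32 CPM on HF/HS and 4.07, 6.15 and 2.41 CPM on chow in ConvR livers, against 1.06, 0.841 and 0.64 CPM on HF/HS and 1.45, 1.54 and 0.87 CPM on chow in GF livers. It was higher in the ConvR mice of each diet. For Irak3 the log2 fold change was 1.36 ± 0.26 on average (adjusted p = 0.00876), 1.004 on HF/HS (adjusted p = 0.214) and 1.73 on chow (adjusted p = 0.0199). Tlr4, the receptor for lipopolysaccharide, stood at 3.24, 2.87 and 2.91 CPM on HF/HS and 4.29, 3.38 and 3.26 CPM on chow in ConvR livers, against 3.19, 3.47 and 2.97 CPM on HF/HS and 1.58, 1.66 and 1.26 CPM on chow in GF livers. GF mice on chow were low, and on HF/HS the groups overlapped. For Tlr4 the log2 fold change was 0.60 ± 0.12 on average (adjusted p = 0.0108), -0.09 on HF/HS (adjusted p = 0.844) and 1.29 on chow (adjusted p = 0.00351), with an interaction adjusted p of 0.0503. Tlr2 (1.42 ± 0.37, adjusted p = 0.0342) and Lbp, the lipopolysaccharide binding protein (1.02 ± 0.28, adjusted p = 0.0373), kept their calls in 3 and 2 of the 12 fits without 1 library (adjusted p up to 0.0805 and 0.0981). Without ConvR chow 1 and 2 the median of the list was 0.07 and 0 members were called. The part of macrophage RNA in these values was not tested.

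The called hepatocyte markers and ribosomal protein genes were lower. Of 25 markers of hepatocyte identity 0 were higher, 6 were lower and 19 were not called. Their sum was 115200 to 119700 CPM on HF/HS and 90080 to 117900 CPM on chow in ConvR livers, against 156200 to 164200 CPM and 117500 to 134400 CPM in GF livers, none of the 25 was at 0 in all 12 libraries, and the part of hepatocyte RNA in the results on metabolic genes was not tested. Apoa1, the main protein of HDL (-0.66 ± 0.13, adjusted p = 0.0119), Ahsg, fetuin A (-0.49 ± 0.10, adjusted p = 0.0112), and Asgr2, a subunit of the asialoglycoprotein receptor (-0.40 ± 0.07, adjusted p = 0.00697), were among them, beside Cps1, Serpina1b and Cyp2e1. Of 76 ribosomal protein genes 0 were higher, 21 were lower and 55 were not called, with log2 fold changes of -0.36 to -0.19. On both diets 63 were negative, beside 3825 of all 12377 genes tested. Rpl3 stood at 193, 189.6 and 190.5 CPM on HF/HS and 282, 277 and 292 CPM on chow in ConvR livers, against 266, 295 and 263 CPM on HF/HS and 366, 317 and 293 CPM on chow in GF livers. ConvR mice were below the GF mice of their diet, by a narrow margin on chow. For Rpl3 the log2 fold change was -0.36 ± 0.07 on average (adjusted p = 0.0068), -0.52 on HF/HS (adjusted p = 0.0148) and -0.20 on chow (adjusted p = 0.218). The ribosomal median of -0.20 was -0.11 with 8 calls when the length trend of each library was removed, -0.14 with 5 calls with no normalization factors and -0.16 with 2 on TPM. With the length trend removed the chow median was 0.0023, and without ConvR chow 1 and 2 the median was -0.20 with 0 calls. With no normalization factors 1 hepatocyte marker was higher and 4 were lower. Without ConvR chow 1 and 2 the median of the hepatocyte markers was -0.23, against -0.18 with all libraries. Those 2 mice had the lowest sums, 94450 and 90080 CPM, while ConvR chow mouse 3 (117900 CPM) lay within the GF range on chow.

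Other differences were uneven between diets or mice. Of 32 acute phase genes, which hepatocytes make in response to cytokines, 14 were higher, 0 were lower and 18 were not called. The median log2 fold change was 0.98 on average, -0.04 on HF/HS and 1.78 on chow. Saa2, a serum amyloid A that shares nearly all its sequence with Saa1, stood at 22.7, 53.8 and 18.1 CPM on HF/HS and 9887, 12790 and 695 CPM on chow in ConvR livers, against 8.81, 9.56 and 8.03 CPM on HF/HS and 12.6, 5.03 and 6.48 CPM on chow in GF livers. Within each diet the groups did not overlap, but ConvR chow mice 1 and 2 were far above their group mate. For Saa2 the log2 fold change was 5.89 ± 0.66 on average (adjusted p = 0.000418), 1.84 on HF/HS (adjusted p = 0.286) and 9.93 on chow (adjusted p = 0.000742), with an interaction adjusted p of 0.0503. Lcn2 encodes a lipocalin that starves bacteria of iron by trapping siderophores. It stood at 11.4, 20.1 and 7.51 CPM on HF/HS and 1073, 1453 and 75.2 CPM on chow in ConvR livers, against 4.35, 2.63 and 2.39 CPM on HF/HS and 1.93, 1.54 and 2.85 CPM on chow in GF livers. The pattern among mice was the same, and on HF/HS the ConvR mice were still all higher. For Lcn2 the log2 fold change was 5.35 ± 0.62 on average (adjusted p = 0.000545), 2.05 on HF/HS (adjusted p = 0.233) and 8.66 on chow (adjusted p = 0.000742). Orm2, an acid glycoprotein, was higher as well (3.92 ± 0.51, adjusted p = 0.00109; 0.72 on HF/HS and 7.12 on chow), and so was Saa3, which macrophages also make (4.18 ± 0.63, adjusted p = 0.00255; 0.90 on HF/HS and 7.47 on chow). Without ConvR chow 1 and 2 the list median was -0.0038 and 6 members were called, Saa2, Lcn2, Orm2, Saa3 and Hamp among them.

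The sum of neutrophil markers was highest in ConvR chow mice 1 and 2, at 59.61 and 76.37 CPM. Of 7 tested, 0 were called for the average effect, with a median of 0.87, or 0.54 on HF/HS and 1.89 on chow. The 13 listed markers summed to 8.122 to 12.74 CPM on HF/HS and 12.79 to 76.37 CPM on chow in ConvR livers, against 7.917 to 11.14 CPM and 8.993 to 19.62 CPM in GF livers, none of them at 0 in all 12 libraries, and their part in the acute phase result was not tested. Mt2, a metallothionein, stood at 4.02, 7.27 and 3.41 CPM on HF/HS and 452, 947 and 46.9 CPM on chow in ConvR livers, against 4.71, 2.26 and 4.48 CPM on HF/HS and 33.2, 6.68 and 1.89 CPM on chow in GF livers. The ConvR chow mice were highest, GF chow mouse 1 came next, and on HF/HS the groups overlapped. For Mt2 the log2 fold change was 2.75 ± 0.69 on average (adjusted p = 0.0281), 0.35 on HF/HS (adjusted p = 0.915) and 5.15 on chow (adjusted p = 0.0181), and the call held in 5 of the 12 fits without 1 library, those without GF chow 1, GF chow 3, ConvR chow 3, ConvR HF/HS 1 or ConvR HF/HS 3 (adjusted p up to 0.0748).

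The called immediate early genes, a class that responds within minutes to stimuli, were lower in ConvR livers, with larger differences on chow. Of 24 tested, 0 were higher, 7 were lower and 17 were not called, with a median of -0.81 on average, -0.14 on HF/HS and -1.62 on chow. Nr4a1, an orphan nuclear receptor, stood at 3.41, 3.07 and 4.91 CPM on HF/HS and 2.15, 1.93 and 1.02 CPM on chow in ConvR livers, against 8.6, 7.36 and 34.2 CPM on HF/HS and 159, 38.6 and 9.09 CPM on chow in GF livers. Mice of the same diet did not overlap, and the GF values ranged widely. For Nr4a1 the log2 fold change was -3.72 ± 0.65 on average (adjusted p = 0.00493), -2.12 on HF/HS (adjusted p = 0.239) and -5.32 on chow (adjusted p = 0.0147). Egr1, a zinc finger factor, stood at 4.28, 7.37 and 4.5 CPM on HF/HS and 10.2, 9.64 and 5.31 CPM on chow in ConvR livers, against 10.1, 7.99 and 8.03 CPM on HF/HS and 302, 109 and 54.2 CPM on chow in GF livers. On HF/HS all ConvR mice lay just below the GF mice, and on chow far below. For Egr1 the log2 fold change was -2.45 ± 0.42 on average (adjusted p = 0.00422), -0.70 on HF/HS (adjusted p = 0.641) and -4.20 on chow (adjusted p = 0.00437). Fos stood at 0.994, 2.62 and 1.05 CPM on HF/HS and 2.91, 1.45 and 0.301 CPM on chow in ConvR livers, against 1.37, 2.15 and 1.34 CPM on HF/HS and 129, 28.9 and 5.95 CPM on chow in GF livers. The groups overlapped on HF/HS, and GF chow mouse 1 was the highest. For Fos the log2 fold change was -2.59 ± 0.73 on average (adjusted p = 0.0436), -0.09 on HF/HS (adjusted p = 0.988) and -5.10 on chow (adjusted p = 0.0147), and the call held in 3 of the 12 fits without 1 library, those without a GF chow mouse (adjusted p up to 0.122). Ier2 and Nr4a2 were also lower, as were Cyr61 and Klf4, with log2 fold changes of -1.35 ± 0.27 (adjusted p = 0.0112) for Ier2 and -1.61 ± 0.38 (adjusted p = 0.0223) for Nr4a2, and Nr4a2 lost its call without ConvR chow 1, ConvR chow 2 or GF HF/HS 3 (adjusted p up to 0.0676). Without ConvR chow 1 and 2 and GF chow 1 the list median was -0.74 with 3 calls.

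**Figure D5:**
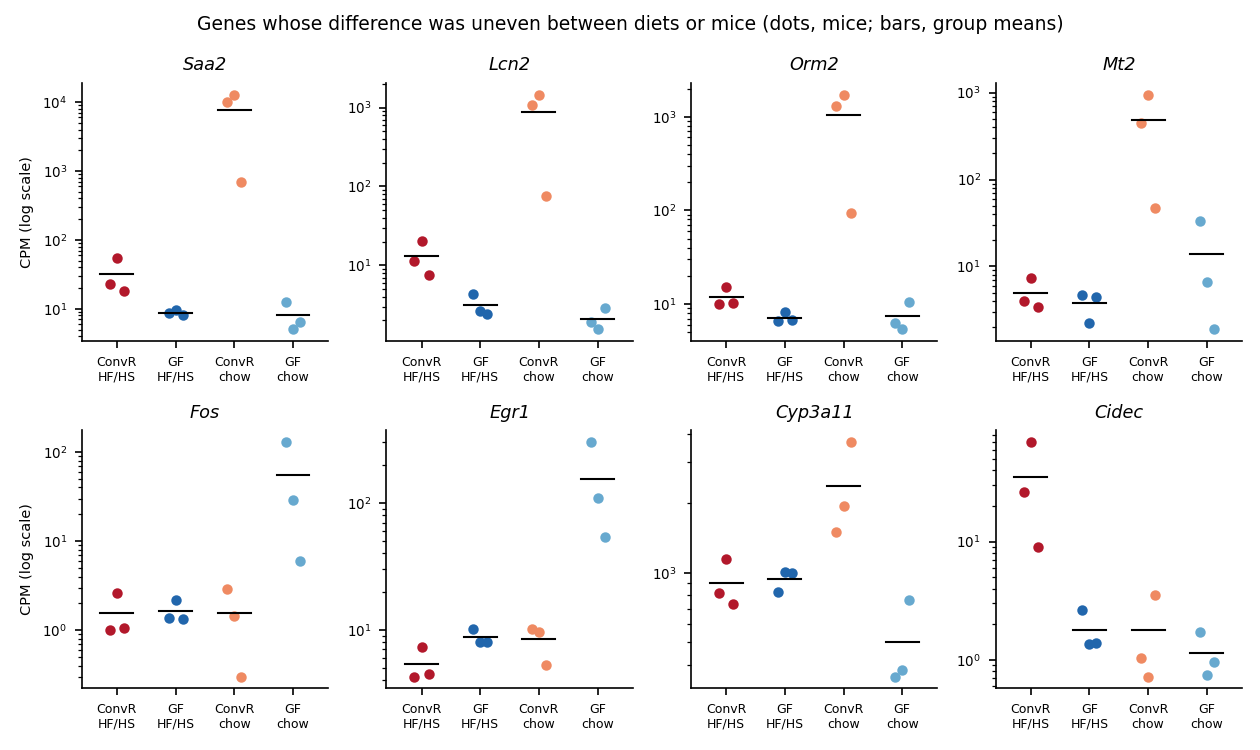
CPM on a log scale of 8 genes whose difference was uneven, 1 dot per mouse, with bars at group means (n = 3 mice per group). In Saa2, Lcn2, Orm2 and Mt2 the ConvR chow dots stand highest and are spread over more than 1 unit of log10, in Fos and Egr1 the GF chow dots stand highest, Cyp3a11 differs on chow, and Cidec differs on HF/HS.

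In 20 called genes the within-diet log2 fold changes had different signs, 16 with a higher and 4 with a lower average. Those given here were chosen after their values were seen. They included Tlr4 and Cyp3a11, the acute phase genes Apcs (-0.22 on HF/HS and 3.01 on chow) and Orm1 (-0.10 on HF/HS and 2.39 on chow), and Fgl1 (-0.12 on HF/HS and 2.62 on chow), an acute phase hepatokine. Others had their difference on HF/HS, as did Apoc2, an activator of lipoprotein lipase (0.75 on HF/HS and -0.05 on chow), Ephx1, the microsomal epoxide hydrolase (1.204 on HF/HS and -0.11 on chow), and Smo, the Hedgehog signal transducer (-0.88 on HF/HS and 0.21 on chow, interaction adjusted p = 0.0503). In each of these the value of the opposite sign was small, between -0.22 and 0.21. Among called genes whose ranges overlapped on a diet, Ly6d, a surface antigen, was higher (2.59 ± 0.57, adjusted p = 0.0172; 3.55 on HF/HS and 1.63 on chow) and lost its call without ConvR chow 1 (adjusted p = 0.0579). Fam83f (-1.51 ± 0.40, adjusted p = 0.0342) and Lrtm1 (-1.44 ± 0.38, adjusted p = 0.035) were lower, with calls in 6 and 4 of the 12 fits without 1 library (adjusted p up to 0.0769 and 0.078).

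Among the remaining lists, 7 had no member called for the average effect, those of the interferon response, MHC class II, neutrophils, B and plasma cells, sinusoidal endothelium, red blood cells and the mitochondrial respiratory chain. By edgeR 23 of their 123 tested members had an unadjusted p below 0.05, 4 of them in MHC class II and 13 in the respiratory chain. DESeq2 called 1 higher in the interferon response, 1 higher among neutrophil markers, 2 lower in MHC class II and 2 lower in the respiratory chain, limma-voom called 0, and edgeR on the 12 libraries alone called 4 lower in MHC class II. The 11 MHC class II genes summed to 167 to 225.7 CPM on HF/HS and 158.4 to 184.4 CPM on chow in ConvR livers, against 240 to 300.7 CPM and 232.9 to 267.2 CPM in GF livers, without overlap on either diet. Of 22 male-biased liver genes 0 were higher and 2 lower, among them Susd4 (-0.99 ± 0.15, adjusted p = 0.00292). Their median was -0.38, with -0.52 on HF/HS and -0.33 on chow. On both diets 15 were negative, beside 3825 of all 12377 genes tested. Lower members numbered 8 by DESeq2, 7 by limma-voom, 4 on TPM and 1 with the 12 libraries alone. Their sums were 15760 to 46900 CPM on HF/HS and 64320 to 66780 CPM on chow in ConvR livers. In GF livers they were 48040 to 50120 CPM and 55750 to 68850 CPM. Of 14 female-biased genes 2 were higher, Ntrk2 and Cyp17a1 (Cyp17a1 in 4 of the 12 fits without 1 library), and 1 was lower, the estrogen sulfotransferase Sult1e1 (-1.66 ± 0.42, adjusted p = 0.0296). Among 10 genes of metallothioneins and zinc transport 3 were higher and 1 was lower, Slc39a4, the intestinal zinc importer (-0.80 ± 0.14, adjusted p = 0.00531; -1.50 on HF/HS and -0.09 on chow). Of 31 genes of protein and amino acid stress 2 were higher, Dnajb9 (0.52 ± 0.12, adjusted p = 0.0205) and Sel1l, and 2 were lower, Atf4 (-0.47 ± 0.12, adjusted p = 0.0276) and Trib3. Stellate cell and matrix genes had 1 higher, the collagen Col1a1 (1.12 ± 0.29, adjusted p = 0.0339), and 1 lower of 18. Of 10 T and NK cell markers 1 was lower, Cd4 (-0.83 ± 0.23, adjusted p = 0.0421), and of 2 pancreatic markers 1 was lower, the elastase Cela1 (-1.16 ± 0.18, adjusted p = 0.00291), which stood at 8.46 to 32.5 CPM (median 14.5) in ConvR livers, against 26.8 to 42.3 CPM (median 36.9) in GF livers, while 4 of 16 listed pancreatic markers were at 0 in all 12 libraries. The clock list had 1 of 19 lower, Cry2 (-0.44 ± 0.11, adjusted p = 0.0302), histone acetylation enzymes 2 of 29 lower, and histone and DNA methylation enzymes 2 of 40 higher. Sult1e1 and Sel1l kept their calls in 6 and 2 of the 12 fits without 1 library (adjusted p up to 0.0792 and 0.103). Dnajb9 lost its call without ConvR chow 1, GF HF/HS 1 or GF HF/HS 3 (adjusted p up to 0.0572). Atf4, Col1a1, Cd4 and Cry2 kept their calls in 5, 5, 3 and 5 of the 12 fits without 1 library (adjusted p up to 0.0703, 0.0872, 0.1 and 0.0765).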

How the data were processed

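Poly(A) RNA of mouse livers was made into stranded libraries, per the labels' protocols. The authors aligned reads with Bowtie2 and estimated expected counts per gene with RSEM 1.2.23 on mouse build mm9, per the submitters' processing notes. The deposited files also give TPM, used here only in an alternative, and FPKM, which was not used. Expected counts were rounded. Genes were matched between libraries by name, since the files of GF HF/HS mice 2 and 3 list them in another order and format than the others. Whether these 2 libraries were handled differently in other ways was not tested.

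Genes passing filterByExpr (minimum count 10) were fitted with edgeR 4.0.16 (quasi-likelihood F test, TMM factors, 1 mean per group, all 15 libraries, R 4.3.3). The effect is the mean of the 2 ConvR groups minus the mean of the 2 GF groups, on the log2 scale. The standard error given with it was derived from the test, as the absolute log2 fold change divided by the square root of F. P-values were adjusted over all genes tested (Benjamini-Hochberg), and a gene was called below 0.05. The labels give 3 biological replicates, 1 mouse each, per group. Alternatives used limma 3.58.1 (voom, and trend on log2(TPM + 1)) and DESeq2 1.42.0. The code was tested on simulated counts.

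Named genes were the 12 each way with the largest smaller-of-both-diets effect among called genes of at least 2 CPM with separate ranges on both diets, up to 4 per list by adjusted p, the 4 each way with the largest average effect among other called genes, and Cyp3a11, Cyp7a1, Csad, Cyp39a1, Saa2 and Fos. Predicted genes were passed over. A gene that the rule named is not reported here. The members, the 44 lists and these rules were chosen with earlier results of these data known. Promoters are from RefSeq GRCm38.p6, matched by symbol.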

Additional observations from a re-analysis of the deposited data

How the results depend on the processing

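The average effect called 1038 genes. This count was 665 on TPM, 564 with the 12 libraries alone, 446 with an additive model, 180 without ConvR chow 1 and 2, 378 without those and GF chow 1, 19 without GF HF/HS 2 and 3, and 166 at a 2-fold minimum. In the order of these settings, with none for the additive model, genes of one sign (1018) numbered 646, 559, 179, 377, 19 and 158. DESeq2 called 1021 of the 1038 and limma-voom 870. Chow calls (584) were 1044 by DESeq2, 381 by voom, 937 on TPM, 219 with 12 libraries, 12 without ConvR chow 1 and 2, 14 without those and GF chow 1, 157 without GF HF/HS 2 and 3, and 200 at 2-fold. HF/HS calls (200) were 765 with no normalization factors, 515 by DESeq2, 791 on TPM, 92 with 12 libraries, 814 without the 3 chow libraries, 0 without GF HF/HS 2 and 3, and 71 at 2-fold. Interaction calls (0) were 6 with no normalization factors, 2 with no filter, 11 with a stricter one, 150 by DESeq2 and 1192 on TPM, of which 97.8% were positive. Chow calls also seen on HF/HS (166) were 273 by DESeq2, 75 with 12 libraries, 8, 9 and 35 without the same 3 sets of libraries, and 52 at 2-fold. HF/HS calls also seen on chow (92) were 167, 203, 50, 206, 0 and 36, for no factors, DESeq2, 12 libraries, the 3 chow libraries left out, GF HF/HS 2 and 3 left out, and 2-fold. Called list entries (179) were 273 by DESeq2, 103 on TPM, 94 with 12 libraries, 70 additive, 44, 72 and 6 without those sets, and 56 at 2-fold.

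Leaving out 1 library gave 432 to 1844 average calls, 429 to 1692 of one sign, 46 to 1655 on chow, 16 to 459 on HF/HS, 0 to 436 interaction calls, 18 to 409 chow calls and 10 to 176 HF/HS calls seen on the other diet, and 75 to 298 called genes found in any list. The share of average calls that were higher was 49.3%, against 76.0% with no normalization factors and 66.3% on TPM. On HF/HS it was 54.5%, against 93.5%, 93.8% on TPM (the median of all genes moved to 0.165 and 0.157) and 65.5% with the length trend removed. On chow it was 54.1%, against 40.6% and 17.1%, with a median of -0.104 on TPM. Of the named genes, 77 of 129 called kept their calls whichever library was left out, and none changed its direction while called. The cause of these shifts was not tested. The TMM factors differed by group, at 1.053 to 1.133 in ConvR HF/HS and 0.9632 to 0.9738 in GF HF/HS libraries. On chow they were 0.9077 to 0.9851 in ConvR and 0.9751 to 0.9862 in GF libraries. Values near or below 1 CPM rest on few reads in libraries of 14737578 to 21331381 counts. Same-numbered mice correlated at -0.126 to 0.246 in their deviations from group means, and 1 of 6 pairs passed 0.1. With 3 mice per group, these values cannot show whether mice of the same number were paired, and the main fit did not pair them. A replicate block gave 850 average calls, 839 of one sign, 402 on chow, 143 on HF/HS, 0 interaction calls, 132 and 70 seen on the other diet, and 155 called genes found in any list.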
